A study of Mus musculus with 5 samples.

Results

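Lymphatic endothelial cells (LEC) line the vessels that drain fluid, fat and immune cells from tissue. In the Drop-seq profiles of mouse colon mesenchyme they were taken as the cell barcodes with at least 300 genes and at most 10% mitochondrial unique molecular identifiers (UMIs, tags that each stand for 1 captured RNA molecule), with a UMI of at least 2 of the 4 lymphatic genes Mmrn1, Prox1, Lyve1 and Reln, and with a UMI of fewer than 2 of the macrophage genes C1qa, C1qb and C1qc. The rule found 182 LEC among 6005 retained barcodes and 7935 barcodes in all. In Drop-seq each cell shares a droplet with a barcoded bead that binds its polyadenylated RNA. All cells came from the colon of untreated C57/BL6 mice aged 10 weeks, freshly isolated after the epithelium had been depleted with EDTA and DTT and the mesenchyme digested with Collagenase XI and Dispase. Biological replicate 1 gave 2 droplet collections, 1A and 1B, and biological replicate 2 gave 3, named 2A, 2B and 2C. No treatment or genotype was compared, and the labels do not say how many mice made up a replicate. The p-values therefore rest on these 2 replicates alone. They measure the spread left between replicates over all cell classes in the fit, after a shift shared by the classes of a replicate was taken out.

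Lymphatic identity is set and held by the transcription factor Prox1, and growth and survival of the vessels depend on the receptor Flt4 (VEGFR-3), which binds the growth factors VEGF-C and VEGF-D. The endothelium of the smallest lymphatic vessels releases Ccl21, which draws Ccr7-bearing dendritic cells and T cells in. In the gut these vessels also carry absorbed fat and lie close to the base of the epithelium.

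The chemokine transcript Ccl21a is used below to describe the LEC and in their comparison with other classes. In the mouse it belongs to a group of near-identical genes on chromosome 4. Ccl21a and one other copy, Gm10591, were analysed here. The 250 bases before the start of each (RefSeq, GRCm38.p6) are shown because they differ so little, with the bases that differ in capitals.
Ccl21a: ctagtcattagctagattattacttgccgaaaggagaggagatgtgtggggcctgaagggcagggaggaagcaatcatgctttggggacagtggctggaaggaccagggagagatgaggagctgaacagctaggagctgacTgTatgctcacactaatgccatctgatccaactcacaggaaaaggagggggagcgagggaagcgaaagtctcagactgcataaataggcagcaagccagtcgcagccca
Gm10591: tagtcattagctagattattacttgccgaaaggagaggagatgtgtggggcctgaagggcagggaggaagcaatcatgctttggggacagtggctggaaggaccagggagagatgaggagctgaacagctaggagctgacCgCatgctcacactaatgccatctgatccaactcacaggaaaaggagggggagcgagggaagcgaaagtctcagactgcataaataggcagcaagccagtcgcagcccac
The Ccl21a window lies at chr4:42773992-42774241 on the minus strand and that of Gm10591 at chr4:42611873-42612122 on the plus strand. Over the 249 aligned bases 2 differed, T142C and T144C, with positions counted from the 5′ end of the Ccl21a window and the Ccl21a base first. The LEC held 3747 UMIs under Ccl21a and 1 under Gm10591. How reads shared by the copies were assigned is not given in the sources used here, so the values named Ccl21a below may hold reads of its copies.

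The LEC were chosen by the UMIs of the 4 lymphatic genes and of the C1q genes, and the rest of this paragraph describes what that choice let in, with no test. Of the 182 LEC, 60 had a UMI of 2 rule genes, 56 of 3 and 66 of all 4. Lyve1, a hyaluronan receptor, was found in 174, Mmrn1, a secreted multimerin, in 167, Reln, the signalling glycoprotein reelin, in 117 and Prox1 in 94. Just outside the threshold stood 335 retained barcodes with 1 rule gene and fewer than 2 C1q genes. Their pooled Ccl21a level was 40.2 per 1000000 UMIs (CPM), against 3583 CPM in LEC with 2 rule genes, 9798 with 3 and 9060 with 4. The C1q limit left out 2 barcodes that had at least 2 rule genes.

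Members differed most plainly in whether they held RNA that marks another class of cell. Among the LEC, 65 also had UMIs of at least 2 of the 4 genes that define another class here, most often fibroblasts (Pdgfra, Dcn, Lum, Dpt; 45 LEC) and blood endothelial cells (Flt1, Plvap, Emcn, Cd300lg; 37 LEC), then smooth muscle (14) and pericytes (7). None met the rule of enteric glia, of macrophages or of T cells. For macrophages this was nearly fixed in advance, since their rule uses the C1q genes that the LEC rule limits. These 65 barcodes had a median of 3432 UMIs, against 1169 in the other 117. Ccl21a had no UMI in 25 LEC, of which 21 were among the 65 and 23 had exactly 2 rule genes. The 26 LEC with 2 rule genes that met another class rule had a median of 0 Ccl21a UMIs per 1000, while the 34 with 2 rule genes that met none had a median of 12.6, close to the medians of 9.48 and 10.9 in such cells with 3 and 4. The highest of the 26 had 26.4 per 1000. Whether these barcodes are single lymphatic cells was not tested. Values without all 65, or the UMIs that the 65 hold, are given below for the genes described. This was done for most genes where leaving them out ends a call, turns a direction or moves a fold change by over 1.5 times. It was not done for some, among them Ccl21a, Tbx1, Igha, Igj and Iglv1. The fold changes of these named genes moved by over 1.5 times but kept their direction and their call.

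**Figure D1:**
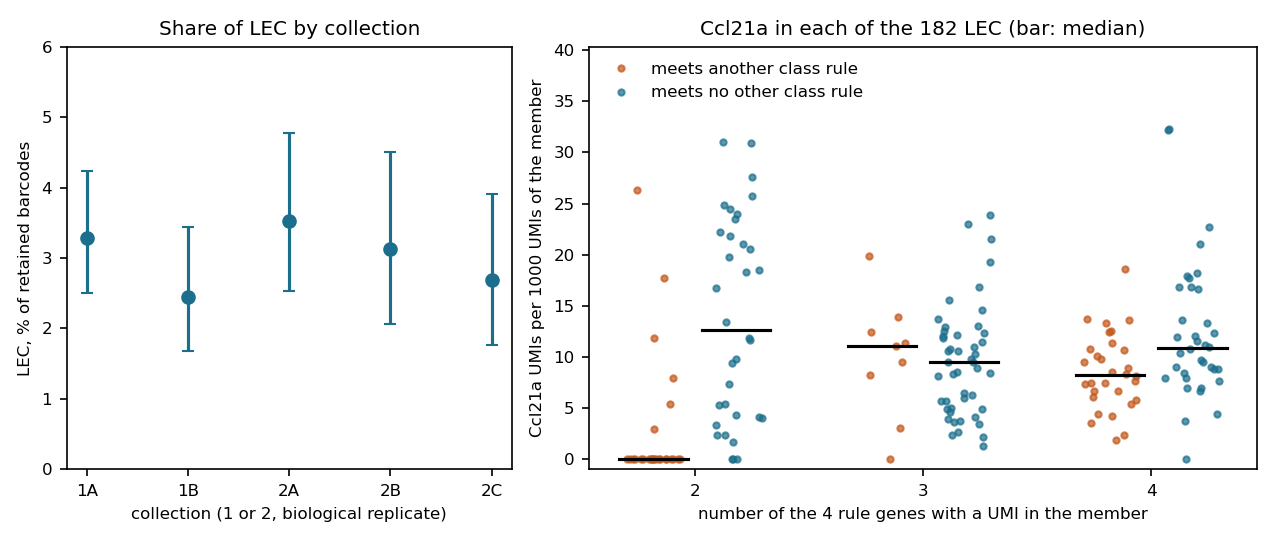
Left, share of LEC among retained barcodes in each of the 5 collections, with exact binomial 95% intervals. Right, Ccl21a UMIs per 1000 UMIs in each of the 182 LEC by the number of rule genes found, split by whether the barcode also met another class rule; the group with 2 rule genes and another class rule has a median of 0.

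The share of LEC ranged from 2.45% to 3.53% between collections, and the differences between them were not tested. LEC were 3.29% of retained barcodes in collection 1A, 2.45% in 1B, 3.53% in 2A, 3.13% in 2B and 2.69% in 2C, and every one of the exact binomial 95% intervals overlapped the others. By replicate the share was 2.93% in replicate 1 (89 of 3041, 2.36 to 3.59%) and 3.14% in replicate 2 (93 of 2964, 2.54 to 3.83%), a mean of 3.03% ± 0.149 (SD, n = 2). Intervals cover counting error only. Of barcodes classed as either kind of endothelium, LEC were 30.2% in replicate 1 and 37.96% in replicate 2. Blood endothelial barcodes that met another class rule were left out of this count while such LEC were kept, which raises the LEC share. Of the LEC counted, 37 also met the blood endothelial rule. These shares describe cells that survived the digestion and passed the filters, not the tissue. The collections held 1636550 to 3345732 UMIs in all. The LEC sums held 305927 and 193216 UMIs in replicates 1 and 2, and the median LEC held 2223 and 1393 UMIs. No LEC barcode recurred in another collection. In LEC of replicates 1 and 2 the 4 genes of fibroblasts summed to 673 and 1082 CPM, those of blood endothelial cells to 892 and 688 CPM, of smooth muscle to 324 and 202 CPM, and of pericytes to 199 and 129 CPM. Those of B or plasma cells summed to 1036 and 25.9 CPM, of macrophages to 32.7 and 36.2 CPM and of enteric glia to 19.6 and 20.7 CPM. The C1q limit of the LEC rule held down the macrophage sum and C1qc. The sums were at most 16.3 CPM for enteric neurons, epithelium and T cells and 0 for mesothelium, and Cd3e, Krt8, Sox10 and C1qc had no UMI. What part this RNA has in the differences below was not tested beyond the values without the 65 barcodes.

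Flt4, Pdpn and Nrp2, lymphatic genes that the rule did not use, were higher in LEC than in blood endothelial cells. The UMIs of LEC and of 7 other classes were summed per replicate and compared with edgeR's quasi-likelihood test, and the class set directly against LEC was the 358 blood endothelial cells (206 and 152). Flt4 was at 541, 577, 699.9, 667 and 506 CPM in LEC of collections 1A, 1B, 2A, 2B and 2C. Over replicates 1 and 2 it was at 556 and 621 CPM in LEC, against 47.6 and 10.1 CPM in blood endothelial cells, a log2 fold change of 4.08 ± 0.31 (adjusted p = 4.9e-37). Flt4 passed the filter on low counts through LEC alone, and with no such filter its adjusted p was 6.8e-33. Every LEC value lay above every blood endothelial value, and pericytes, the highest class outside the endothelium, averaged 18.5 CPM. Pdpn, the mucin-type glycoprotein podoplanin, was at 258 and 295 CPM in LEC, against 8.29 and 23.5 CPM in blood endothelial cells (log2 fold change 4.15 ± 0.39, adjusted p = 4.8e-24). Pdpn did not set LEC apart from the tissue, since fibroblasts averaged 314 CPM. Nrp2, the co-receptor that Flt4 uses, was at 454 and 347 CPM in LEC, against 213 and 229 CPM in blood endothelial cells (log2 fold change 0.80 ± 0.23, adjusted p = 0.0042), a call that was lost when genes of low counts were kept or when only barcodes with at most 5% mitochondrial UMIs were used. Macrophages averaged 295 CPM of Nrp2, and it was not called above all 7 other classes.

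Among genes with a UMI in both endothelia, Ccl21a had the largest fold change. It was at 6947, 7056, 9984, 8078 and 6832 CPM in LEC of collections 1A, 1B, 2A, 2B and 2C, against 2.07 and 6.73 CPM in blood endothelial cells of replicates 1 and 2, where it had 3 UMIs in all. The UMI ratio of LEC to blood endothelial cells was 1952, 95% counting interval 668 to 9471, with an adjusted p of 2.5e-217. Ccl21a too passed the filter through LEC alone, and with no filter its adjusted p was 3.4e-201. Its lowest collection in LEC was far above every class, and enteric glia, the highest class outside the endothelium, averaged 3.73 CPM. With each cell thinned to 800 UMIs, which left out 27 LEC and 44 blood endothelial cells, 83.9% of LEC had a Ccl21a UMI (95% interval 77.1 to 89.3%), against 0.318% of blood endothelial cells. Unthinned the shares were 86.3% and 0.838%, at median depths of 1724.5 and 1720 UMIs. Flt4 was found in 40.6% of thinned LEC and 2.87% of thinned blood endothelial cells (unthinned 60.99% and 6.98%). Fibroblasts, taken here to lack both transcripts, had a UMI of each in 0.166% of cells when thinned (median depth before thinning 1486.5 UMIs). That share lay within the interval of Ccl21a in blood endothelial cells (0.00806 to 1.76%) and below that of Flt4 (1.32 to 5.37%). These intervals cover counting error over cells, which are no replicates. Flt4 in blood endothelial cells was at 47.6 and 10.1 CPM in replicates 1 and 2, a spread that the intervals leave out.

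Pan-endothelial genes were found in LEC. Cdh5, the VE-cadherin of endothelial junctions, was at 258 and 321 CPM in LEC and 358 and 316 CPM in blood endothelial cells, with no call (log2 fold change -0.33 ± 0.24, adjusted p = 0.32). Sox18, a factor upstream of Prox1 in the embryo, was at 45.8 and 56.9 CPM in LEC and 58 and 57.2 CPM in blood endothelial cells, with both LEC values the lower and no call (adjusted p = 0.74). Pecam1, the adhesion molecule CD31, was lower in LEC, at 507 and 512 CPM, against 994 and 1086 CPM in blood endothelial cells (log2 fold change -1.11 ± 0.20, adjusted p = 7.5e-07). Outside the endothelium the highest class mean of Pecam1 was 125 CPM.

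A gene was called above all other classes when LEC exceeded each of the 7 others, by the largest of 7 p-values adjusted over 6015 genes; 77 genes were (1.28%). Of these, 34 passed the filter on low counts through LEC alone and would not have been tested without it. With no filter on low counts 67 of the 77 were called. Ranked by the smallest of the 7 fold changes, the 15 leading genes were Ccl21a, Gpm6a, Slc45a3, Nts, Wipf3, Lcn2, Sult1a1, Klhl4, Pard6g, Flt4, Cp, Gpr97, Il7, Fxyd6 and Lbp. All of these but Cp passed the filter through LEC alone, so their p-values are given as a description and not as independent support. All 15 were also called with no filter. Without the 65 barcodes that met another class rule, 87 genes were called, and 73 of the 77 were among them. One of the 77, Ighv9-3, had all of its 141 UMIs in a single barcode and describes that barcode alone.

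Several of these genes encode secreted or membrane proteins better known elsewhere. Cp, the copper-bearing ferroxidase ceruloplasmin of plasma, was at 1268 and 1469.9 CPM in LEC, against 8.29 and 10.1 CPM in blood endothelial cells, and fibroblasts averaged 72.5 CPM (adjusted p for all 7 classes 3.7e-25). Lcn2, the siderophore-binding lipocalin 2, was at 294 and 461 CPM in LEC, against 10.4 and 3.36 CPM in blood endothelial cells (adjusted p for all 7 classes 3.3e-07). Lbp, the lipopolysaccharide-binding protein, was at 150.4 and 150.1 CPM in LEC, against 12.4 and 0 CPM in blood endothelial cells (adjusted p for all 7 classes 0.012). The replicates of Lcn2 differed more than those of the other two, its lower LEC value was still above every other class, and its call against blood endothelial cells was lost under DESeq2's Wald test (adjusted p = 0.22). Nts, the peptide neurotensin, was at 160.2 and 429.6 CPM in LEC, against 0 and 3.36 CPM in blood endothelial cells, where 1 UMI was found (adjusted p for all 7 classes 3.4e-05). Only 36 LEC held an Nts UMI, and 9 of them held 68.2% of its 132 UMIs.

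Il7, a cytokine that T cells and innate lymphoid cells need for survival, was at 206 and 259 CPM in LEC and had no UMI in blood endothelial cells. Against a floor of 3 UMIs over that class it was at least 58.9-fold higher in LEC, and fibroblasts were the next class at 14 CPM (adjusted p for all 7 classes 0.00023). On the same floor the membrane glycoprotein Gpm6a, at 219 and 269 CPM in LEC, was at least 62-fold higher, and the solute carrier Slc45a3, at 154 and 160.4 CPM, at least 40.6-fold higher, although DESeq2's Wald test did not call Slc45a3 (adjusted p = 0.24). Fxyd6, a regulator of the sodium pump, was at 703 and 776 CPM in LEC, against 14.5 and 13.5 CPM in blood endothelial cells (adjusted p for all 7 classes 5.4e-13). The polarity protein gene Pard6g was at 657 and 652 CPM in LEC, against 8.29 and 13.5 CPM in blood endothelial cells (adjusted p for all 7 classes 5.4e-13). For both, the 2 LEC values were close together and far above every other class. Gpr97, an adhesion G-protein-coupled receptor now named Adgrg3, was at 330.1 and 305 CPM in LEC, against 18.6 and 20.2 CPM in blood endothelial cells (adjusted p for all 7 classes 3.3e-06). Of the remaining 3 leading genes, Wipf3 was at 229 and 197 CPM in LEC, Klhl4 at 232 and 254 CPM and the sulfotransferase gene Sult1a1 at 183 and 243 CPM, and no class outside the endothelium averaged more than 15.1 CPM of any of them.

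**Figure D2:**
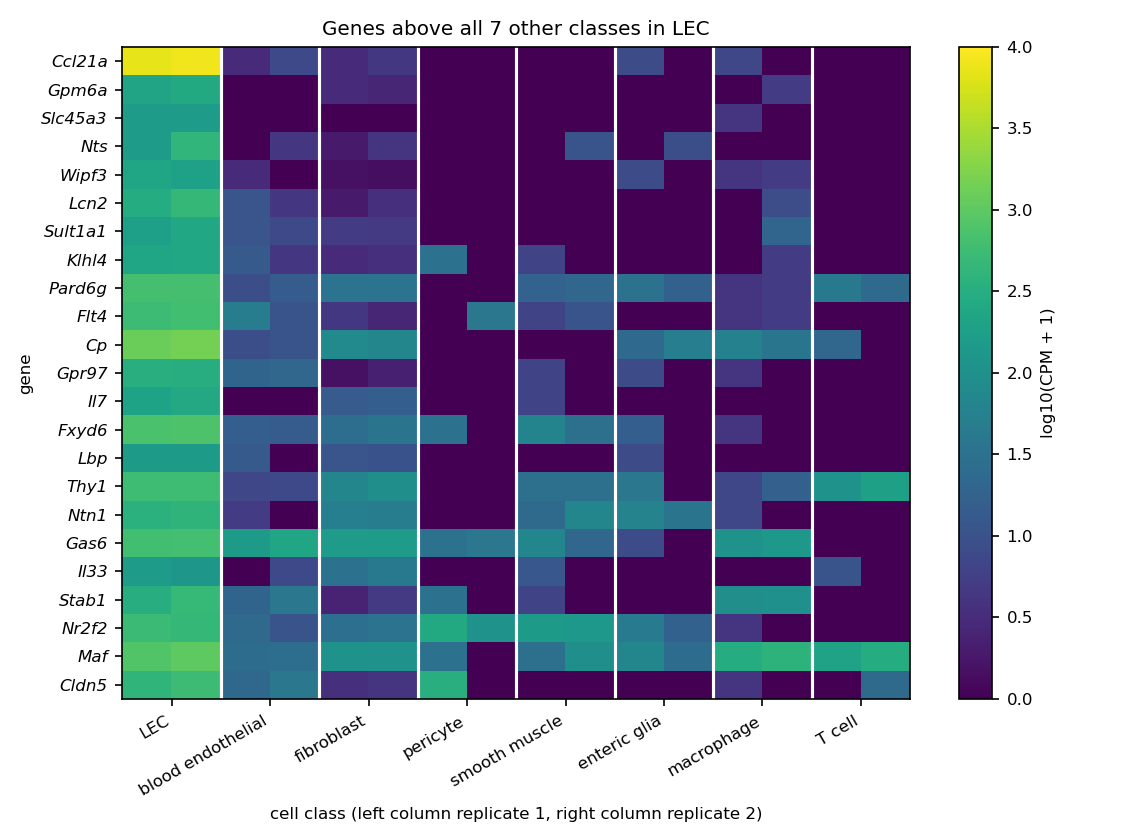
Level of the 15 leading genes and of 8 others called above all 7 classes, as log10(CPM + 1), in LEC and in each other class, with 1 column per biological replicate. Both LEC columns are brightest in every row, and Ccl21a stands out at 6992 and 8322 CPM.

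Motifs were counted in the 250 bases before the start of genes called above all 7 classes. The core AGGAAG, bound by ETS-family factors (Erg, Fli1, Ets1 and Elk3 are members), lay on either strand in 22 of the 58 promoters that the RefSeq table holds for the 77 genes (37.9%), against 29.2% of all 27025 promoters. The forkhead core GTAAACA, which does not contain it, lay on either strand in 2 of the 58 (3.45%), against 3.09% of all. These are descriptions of letters, not of binding. Among the 15 leading genes 11 had a promoter in the table, and 4 of the 11 held AGGAAG. One was Ccl21a, whose window printed above holds it in lower case, and the other three are shown with AGGAAG or its complement CTTCCT in capitals (GRCm38.p6).
Gpm6a: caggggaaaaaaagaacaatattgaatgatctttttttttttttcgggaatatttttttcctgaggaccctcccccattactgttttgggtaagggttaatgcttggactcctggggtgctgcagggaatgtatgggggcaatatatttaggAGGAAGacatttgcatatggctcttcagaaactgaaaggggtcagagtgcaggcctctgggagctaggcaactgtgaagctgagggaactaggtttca
Lcn2: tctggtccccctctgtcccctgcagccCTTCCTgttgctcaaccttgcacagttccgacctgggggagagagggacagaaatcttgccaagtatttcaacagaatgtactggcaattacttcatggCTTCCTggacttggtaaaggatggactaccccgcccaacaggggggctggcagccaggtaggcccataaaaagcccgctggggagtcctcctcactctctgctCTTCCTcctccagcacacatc
Sult1a1: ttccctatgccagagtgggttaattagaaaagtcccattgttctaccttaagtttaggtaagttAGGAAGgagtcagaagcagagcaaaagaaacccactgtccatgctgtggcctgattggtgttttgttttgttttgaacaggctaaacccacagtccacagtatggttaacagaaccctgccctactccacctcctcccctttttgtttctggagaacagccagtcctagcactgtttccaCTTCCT
The windows lie at chr8:54779184-54779433 (plus strand), chr2:32387740-32387989 (minus strand) and chr7:126676419-126676668 (minus strand). The Lcn2 window held the motif 3 times and the Sult1a1 window 2 times, while that of Gpm6a held it 1 time. Gene starts differ between annotations: GENCODE M21 starts Gpm6a at position 54954843, far downstream of the RefSeq start used here, and its Lcn2 and Sult1a1 genes begin at 32388252 and 126676432, so that the whole Lcn2 window and an end of the Sult1a1 window lie inside the GENCODE genes.

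Against blood endothelial cells, 790 of 6011 genes were higher in LEC (13.1%) and 906 were lower (15.1%) at an adjusted p under 0.05. The median log2 fold change of all genes was 0.02. Of the 790, 173 passed the filter through LEC alone. In the lists below that held for 5 of 22 transcription factors, 7 of 26 genes of leukocyte traffic, 8 of 30 secreted signals, 11 of 27 lymphatic identity genes and at most 3 of any other list. Those genes would not have been tested without the LEC sums. The counts of higher and lower genes in each list below stand beside the 13.1% and 15.1% over all genes. Blood endothelial cells that met another class rule had been left out of their class while such LEC were kept, and without the 65 such LEC 526 of the 790 and 654 of the 906 remained called among fewer tested genes. The 516 higher calls without collection 1A were under the main count by more than 1.5 times. Fold changes of genes that define another class are not given, because the class rules hold them low in blood endothelial cells.

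**Figure D3:**
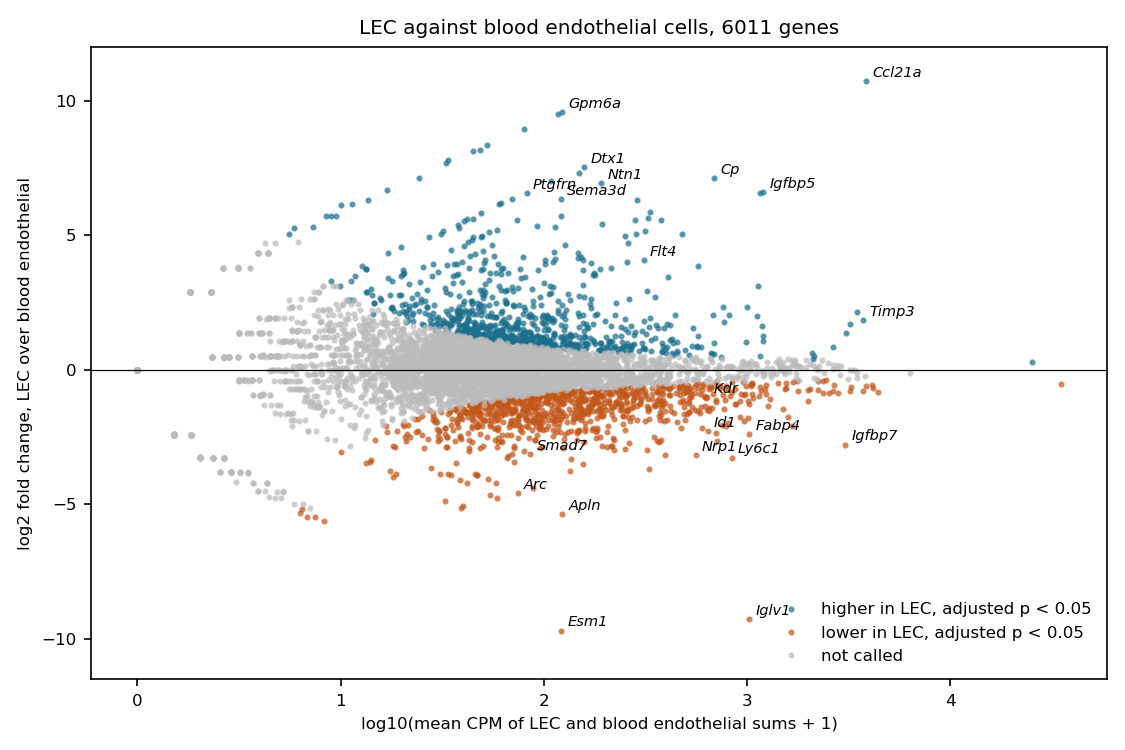
Log2 fold change of LEC over blood endothelial cells against the mean level, for 6011 tested genes, each a point. The straight upper band of points on the left holds genes with no UMI in blood endothelial cells, and Ccl21a, Cp and Igfbp5 combine a large difference with a high level.

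The 10 genes furthest above blood endothelial cells, among those with a UMI in both, were Ccl21a, Dtx1, Nts, Cp, Wipf3, Ntn1, Igfbp5, Ptgfrn, Fgl2 and Sema3d. Of these 10, 6 passed the filter through LEC alone: Ccl21a, Dtx1, Nts, Wipf3, Ntn1 and Sema3d. Igfbp5, an insulin-like growth factor-binding protein, was at 2121 and 2639.5 CPM in LEC, against 29 and 13.5 CPM in blood endothelial cells (log2 fold change 6.60 ± 0.28, adjusted p = 1.4e-116). Fgl2, a fibrinogen-like prothrombinase, was at 2056 and 2499.8 CPM in LEC, against 14.5 and 33.6 CPM in blood endothelial cells (log2 fold change 6.58 ± 0.28, adjusted p = 9.3e-119). Igfbp5 was above all 7 classes and Fgl2 was not, since enteric glia averaged 3717 CPM of Fgl2. Dtx1, the Notch regulator deltex, was at 271 and 352 CPM in LEC and had 1 UMI in blood endothelial cells, a ratio of 236, 95% counting interval 41.7 to 9383 (adjusted p = 7.8e-31). Ptgfrn, which binds tetraspanins and the prostaglandin F receptor, was at 147 and 176 CPM in LEC, against 2.07 and 0 CPM in blood endothelial cells (ratio 123, 95% counting interval 21.5 to 4938, adjusted p = 4e-20).

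The 10 genes furthest below blood endothelial cells, among those with a UMI in both, were Iglv1, Apln, Mcf2l, Gm22063, Pde4d, Thrsp, Rhbdl2, Arc, Tcf15 and Endou. Genes with no UMI in LEC were left out of this ranking. One of them, Esm1, described below, had a log2 fold change of -9.70, under that of every gene listed. The immunoglobulin light chain segment Iglv1 rests on 1 blood endothelial barcode that held 1207 of its 1217 UMIs, and describes no difference between the classes. Apln, the peptide ligand apelin of growing capillaries, was at 3.27 and 10.4 CPM in LEC, against 263 and 212 CPM in blood endothelial cells (ratio 0.0247, 95% counting interval 0.00504 to 0.0732, adjusted p = 4.1e-21). Tcf15, a transcription factor of capillary endothelium, was at 9.81 and 5.18 CPM in LEC, against 155 and 178 CPM in blood endothelial cells (log2 fold change -4.41 ± 0.58, adjusted p = 1.9e-12; -5.57 without collection 1A). All 4 Tcf15 UMIs of LEC lay in the 65 barcodes that met another class rule. The immediate-early gene Arc was at 9.81 and 0 CPM in LEC, against 149 and 135 CPM in blood endothelial cells (ratio 0.0419, 95% counting interval 0.00851 to 0.126, adjusted p = 3e-12). All 3 Arc UMIs of LEC lay in the 65 barcodes. Pde4d, a cyclic AMP phosphodiesterase, had 1 UMI in LEC and 51 in blood endothelial cells (log2 fold change -4.89, adjusted p = 1.7e-07; -3.56 without the 65 barcodes). Its call was lost (adjusted p = 0.061) when all cells were thinned to 800 UMIs, a setting added after the data had been seen. Thrsp, Rhbdl2, Endou, Mcf2l and Gm22063 had 1 to 3 UMIs in LEC. Those of Thrsp, Rhbdl2, Endou and Mcf2l all lay in the 65 barcodes. Mcf2l and Gm22063 did not pass the filter once the 65 were left out.

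Growth factor receptors divided between the 2 endothelia. In the list of VEGF receptors and ligands 3 of 6 tested genes were higher in LEC, 2 lower and 1 not called, with a median log2 fold change of -0.11 beside 0.02 over all genes. Kdr (VEGFR-2), the main signalling receptor for VEGF-A, was at 425 and 450.3 CPM in LEC, against 797 and 864 CPM in blood endothelial cells (log2 fold change -1.01 ± 0.21, adjusted p = 1.7e-05). Kdr in LEC was well above the 45.4 CPM of pericytes, the highest class outside the endothelium. The co-receptor Nrp1 was at 137 and 93.2 CPM in LEC, against 1036 and 958 CPM in blood endothelial cells (log2 fold change -3.17 ± 0.25, adjusted p = 6.9e-35), the opposite side from Nrp2 and Flt4, and at -3.87 without the 65 barcodes that met another class rule. Pgf, a ligand of Flt1, was at 101 and 93.2 CPM in LEC, against 10.4 and 6.73 CPM in blood endothelial cells (log2 fold change 3.35 ± 0.54, adjusted p = 1.2e-08), although pericytes averaged 401 CPM. The Flt4 ligand Vegfc had 7 UMIs in LEC and 17 in blood endothelial cells and was not tested.

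Of 10 tested genes of angiopoietin, Tie and adrenomedullin signalling, 1 was higher, 3 were lower and 6 were not called (median log2 fold change 0.15), beside 13.1% higher and 15.1% lower over all genes. None of the 3 lower genes passed the filter once the 65 barcodes that met another class rule were left out. The receptors were among those not called: Tek was at 147 and 223 CPM in LEC and 180.2 and 192 CPM in blood endothelial cells, and Tie1 at 291 and 285 CPM in LEC and 186 and 185 CPM in blood endothelial cells. Tie1 was called higher in LEC with DESeq2's size factors (adjusted p = 0.038) and without the 65 barcodes (adjusted p = 0.017). Calcrl and Ramp2, which together form the adrenomedullin receptor, were not called either. Calcrl was at 222 and 212 CPM in LEC and 147 and 161 CPM in blood endothelial cells (adjusted p = 0.24), and Ramp2 at 206 and 289.8 CPM in LEC and 168 and 148 CPM in blood endothelial cells (adjusted p = 0.14), though Ramp2 was called higher in LEC without collection 1B (adjusted p = 0.0066). Ackr3, a receptor that scavenges Cxcl12 and adrenomedullin, was at 216 and 362 CPM in LEC, against 47.6 and 47.1 CPM in blood endothelial cells (log2 fold change 2.44 ± 0.32, adjusted p = 6.7e-13). It was above all 7 classes (adjusted p 0.013). Angpt2, the Tie2 ligand of remodelling vessels, was at 9.81 and 10.4 CPM in LEC, against 58 and 63.9 CPM in blood endothelial cells (log2 fold change -2.64 ± 0.72, adjusted p = 0.0017).

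In the Notch and BMP list 9 of 16 tested genes were lower in LEC, 3 higher and 4 not called, with a median log2 fold change of -1.01, and all 9 lower calls remained without the 65 barcodes that met another class rule. Acvrl1 (ALK1), a type I receptor for BMP9 and BMP10, was at 91.5 and 124 CPM in LEC, against 302 and 346 CPM in blood endothelial cells (log2 fold change -1.69 ± 0.27, adjusted p = 1.6e-08). Its co-receptor Eng was at 219 and 197 CPM in LEC, against 605 and 545 CPM in blood endothelial cells (log2 fold change -1.55 ± 0.23, adjusted p = 1.1e-09), and Bmpr2 was lower too (log2 fold change -1.25 ± 0.33, adjusted p = 0.0014), though not with at most 5% mitochondrial UMIs (adjusted p = 0.073). The target gene Id1 was at 258 and 186 CPM in LEC, against 1023 and 1089 CPM in blood endothelial cells (log2 fold change -2.29 ± 0.22, adjusted p = 4.8e-23), and Id3 at 755 and 745 CPM, against 2425 and 2404 CPM (log2 fold change -1.77 ± 0.17, adjusted p = 5e-23). Smad7, the inhibitory SMAD, was at 16.3 and 20.7 CPM in LEC, against 147 and 155 CPM in blood endothelial cells (log2 fold change -3.12 ± 0.46, adjusted p = 2.2e-10). Without the 65 barcodes the log2 fold changes of Id1 and Id3 were -3.13 and -2.75, and all 9 Smad7 UMIs of LEC lay in those barcodes. For each of these genes the LEC values lay below both blood endothelial values. Id1 and Id3 were also high in pericytes, at 1139 and 4506 CPM.

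On the Notch side the ligand Dll4 was at 91.5 and 114 CPM in LEC, against 348 and 326 CPM in blood endothelial cells (log2 fold change -1.83 ± 0.29, adjusted p = 3.7e-09), and the target Hes1 at 1873 and 2117 CPM, against 2873 and 3702 CPM (log2 fold change -0.79 ± 0.15, adjusted p = 3.3e-06). The Hes1 call was lost under DESeq2's Wald test (adjusted p = 0.48) and with at most 5% mitochondrial UMIs (adjusted p = 0.099). The receptor Notch1 was at 288 and 336 CPM in LEC and 229.9 and 215 CPM in blood endothelial cells, with no call (adjusted p = 0.23), and the target Hey1 at 127 and 124 CPM in LEC and 60.1 and 74 CPM in blood endothelial cells, also with none (adjusted p = 0.075), although DESeq2's size factors gave Hey1 an adjusted p of 0.041. Of the Notch genes named here only deltex (Dtx1) was called higher in LEC in the main fit, and it passed the filter through LEC alone.

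Of 22 tested endothelial transcription factors, 5 were higher, 10 lower and 7 not called (median log2 fold change -0.56). Nr2f2 (COUP-TFII), which venous and lymphatic endothelium share and which works with Prox1, was at 529.5 and 466 CPM in LEC, against 22.8 and 10.1 CPM in blood endothelial cells (log2 fold change 4.71 ± 0.35, adjusted p = 3e-39). Maf was at 830.3 and 1029.9 CPM in LEC, against 24.9 and 26.9 CPM in blood endothelial cells (log2 fold change 5.05 ± 0.30, adjusted p = 2.6e-59), and Tshz2, a zinc finger factor, at 650.5 and 631 CPM, against 176 and 212 CPM (log2 fold change 1.66 ± 0.23, adjusted p = 1.9e-11). Nr2f2, Maf and Tshz2 were each above all 7 classes. Tbx1, needed for lymphatic growth in mouse embryos, was at 101 and 104 CPM in LEC and without a UMI in blood endothelial cells, at least 26.6-fold higher, without a call from DESeq2's Wald test (adjusted p = 0.14). The ETS factor Elk3 was at 278 and 311 CPM in LEC, against 155 and 145 CPM in blood endothelial cells (log2 fold change 0.87 ± 0.26, adjusted p = 0.0051), a call lost when genes of low counts were kept (adjusted p = 0.065) or with at most 5% mitochondrial UMIs (adjusted p = 0.055).

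The lower calls held factors of arterial and general blood endothelium. Sox17, an arterial factor, was at 45.8 and 10.4 CPM in LEC, against 246 and 192 CPM in blood endothelial cells (log2 fold change -2.91 ± 0.40, adjusted p = 8.2e-12). Sox7 was at 62.1 and 72.5 CPM in LEC, against 309 and 282 CPM (log2 fold change -2.25 ± 0.31, adjusted p = 1.7e-11), and the hypoxia factor Epas1 at 147 and 77.6 CPM, against 367 and 380.0 CPM (log2 fold change -1.73 ± 0.26, adjusted p = 1.5e-09). Without the 65 barcodes the log2 fold changes of Sox7 and Epas1 were -3.03 and -2.46, and all 16 Sox17 UMIs of LEC lay in those barcodes. The ETS factors Erg, Fli1, Ets1 and Ets2 had log2 fold changes of -0.93 ± 0.22, -1.10 ± 0.30, -0.91 ± 0.23 and -0.92 ± 0.30, opposite to Elk3, but Fli1 was not called without the 65 barcodes (adjusted p = 0.063), Ets2 without collection 1A (adjusted p = 0.15) nor Erg by DESeq2's Wald test (adjusted p = 0.074). Klf2, a factor that flow raises, was at 595 and 756 CPM in LEC, against 1141 and 1224 CPM in blood endothelial cells (log2 fold change -0.91 ± 0.19, adjusted p = 2.4e-05), and with at most 5% mitochondrial UMIs it was not called (log2 fold change -0.10, adjusted p = 0.79). Klf4 was at 1154 and 1025 CPM in LEC and 965 and 931 CPM in blood endothelial cells, with no call, but was called higher in LEC with at most 5% mitochondrial UMIs (adjusted p = 0.047).

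Genes of lymphatic valves fell on both sides. Of 18 listed genes that the tables held, 14 were tested, with 3 higher, 4 lower and 7 not called (median log2 fold change -0.32). The valve factor Foxc2 had 9 UMIs and the tight-junction gene Cldn11 3 UMIs in all LEC, and neither passed the filter. Itga9, the integrin needed for valve leaflets, was at 105 and 114 CPM in LEC, against 2.07 and 13.5 CPM in blood endothelial cells (log2 fold change 3.93 ± 0.56, adjusted p = 1e-10), but macrophages averaged 173 CPM. Gata2, which acts upstream of Foxc2 in valves, was lower in LEC, at 85 and 56.9 CPM, against 182 and 245 CPM in blood endothelial cells (log2 fold change -1.58 ± 0.33, adjusted p = 1.5e-05). The connexin Gja1 was at 376 and 367 CPM in LEC and 350.0 and 397 CPM in blood endothelial cells, which overlapped (adjusted p = 0.84).

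Among junction genes, 2 of 15 tested were higher, 6 lower and 7 not called (median log2 fold change -0.33). Cldn5, the main claudin of endothelial tight junctions, was at 415 and 543 CPM in LEC, against 20.7 and 37 CPM in blood endothelial cells (log2 fold change 4.01 ± 0.32, adjusted p = 1.2e-32). It was above all 7 classes (adjusted p 0.011), and 86 of the 182 LEC held a UMI of it, but DESeq2's Wald test did not call it against blood endothelial cells (adjusted p = 0.10). Esam, an adhesion molecule of blood vessels, was at 55.6 and 46.6 CPM in LEC, against 360.4 and 349.7 CPM in blood endothelial cells (log2 fold change -2.86 ± 0.32, adjusted p = 3.2e-17). Ptprb, the phosphatase VE-PTP, was at 307 and 259 CPM in LEC, against 746 and 646 CPM in blood endothelial cells (log2 fold change -1.38 ± 0.22, adjusted p = 1e-08), and the adhesion molecule genes Jam2 and Jam3 had log2 fold changes of -2.84 ± 0.49 and -2.40 ± 0.67. Jam3 was at -3.02 without collection 2B. Of the LEC UMIs of Esam, 23 lay in the 65 barcodes that met another class rule and 3 in the other 117, and of those of Jam2 and Jam3 only 2 and 1 lay in the 117. Cdh5, Ctnnb1 and Tjp1 were not called.

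**Figure D4:**
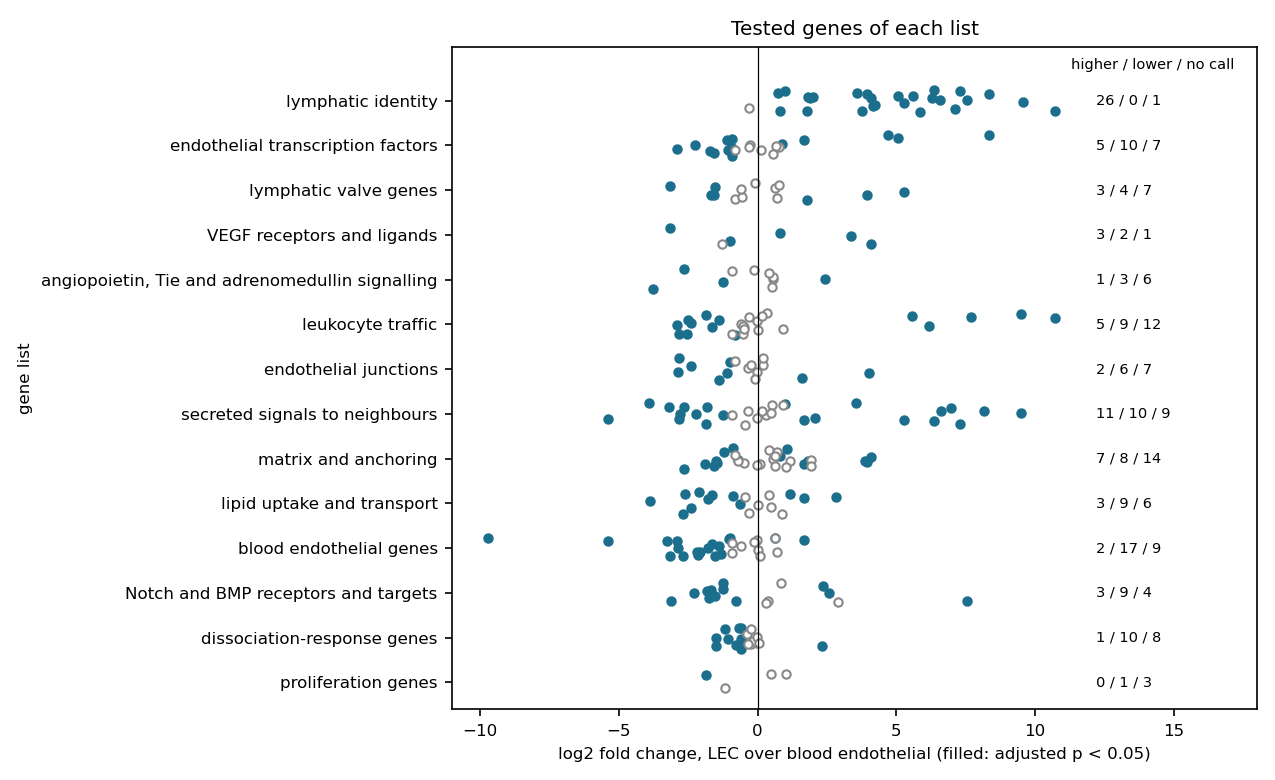
Log2 fold change of LEC over blood endothelial cells for the tested members of each of 14 gene lists, filled where the adjusted p was under 0.05, with the counts of higher, lower and uncalled members at the right. The blood endothelial list and the Notch and BMP list lie mostly left of 0, and the lymphatic identity list right of it.

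Genes of leukocyte traffic were split. Of 26 tested, 5 were higher in LEC, 9 lower and 12 not called (median log2 fold change -0.52). The higher ones were Ccl21a, Il7, Ackr2, Mrc1 and Il33. Ackr2, a decoy receptor that lymphatic vessels use to clear inflammatory chemokines, was at 65.4 and 62.1 CPM in LEC and had no UMI in blood endothelial cells, at least 16.7-fold higher, and it did not pass the filter once the 65 barcodes were left out. Mrc1, the mannose receptor, was at 127 and 114 CPM in LEC, against 2.07 and 0 CPM in blood endothelial cells (ratio 95.3, 95% counting interval 16.5 to 3827, adjusted p = 2.2e-16), while macrophages averaged 923 CPM. LEC held 1 C1qa UMI and 13 C1qb UMIs, 3 of Csf1r and none of C1qc. The LEC rule itself limited the C1q genes, so their low counts are no check for macrophage RNA. Il33, an alarmin of the interleukin-1 family, was at 154 and 129 CPM in LEC, against 0 and 6.73 CPM in blood endothelial cells (ratio 56.3, 95% counting interval 15 to 474, adjusted p = 2.5e-15), and was above all 7 classes (adjusted p 0.0087). Without the 65 barcodes the log2 fold changes were 6.91 for Mrc1 and 6.15 for Il33, against 6.19 and 5.56 with them.

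Adhesion and checkpoint genes were among the lower ones. Icam1 was at 791 and 973 CPM in LEC, against 1272 and 1638 CPM in blood endothelial cells (log2 fold change -0.80 ± 0.19, adjusted p = 0.00014), Cd200, an inhibitory ligand, at 245 and 248 CPM, against 749.8 and 706 CPM (log2 fold change -1.65 ± 0.23, adjusted p = 1.5e-11), and Cd274 (PD-L1) at 22.9 and 10.4 CPM, against 153 and 94.2 CPM (log2 fold change -2.90 ± 0.47, adjusted p = 1.2e-08). The chemokine Cxcl12 was at 114 and 150.1 CPM in LEC, against 445 and 437 CPM in blood endothelial cells (log2 fold change -1.85 ± 0.26, adjusted p = 1.6e-11), and fibroblasts averaged 765 CPM. Without the 65 barcodes the log2 fold changes were -2.81 for Cxcl12 and -2.28 for Cd274, and without collection 1A that of Cd274 was -3.56. The Cxcl12 call was lost with at most 5% mitochondrial UMIs (adjusted p = 0.18). Selp, the leukocyte adhesion receptor P-selectin of venules, was at 592 and 207 CPM in LEC and 433 and 326 CPM in blood endothelial cells, with no call (adjusted p = 0.96). Of its 221 LEC UMIs 176 came from 1 barcode and 219 from the 65 that met another class rule. In the other 117 LEC Selp was at 10.6 CPM, and without the 65 it was called lower than in blood endothelial cells (adjusted p = 1.1e-14). Spns2, the exporter of sphingosine 1-phosphate, was at 134 and 88 CPM in LEC and 51.8 and 63.9 CPM in blood endothelial cells (adjusted p = 0.10) and was called higher in LEC with at most 5% mitochondrial UMIs (adjusted p = 0.019).

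Secreted signals differed in kind. Of 30 tested, 11 were higher in LEC, 10 lower and 9 not called (median log2 fold change 0.24), beside 13.1% higher and 15.1% lower over all genes. Of the 30, 8 passed the filter through LEC alone. Ntn1, the guidance cue netrin 1, was at 356 and 399 CPM in LEC, against 4.14 and 0 CPM in blood endothelial cells (ratio 145, 95% counting interval 39.7 to 1209, adjusted p = 5.1e-39), and Sema3d, a class 3 semaphorin, at 255 and 223 CPM, against 4.14 and 0 CPM (ratio 94.6, 95% counting interval 25.6 to 789.7, adjusted p = 2.5e-24). Gas6, the ligand of the TAM receptors, was at 605 and 637 CPM in LEC, against 149 and 225 CPM in blood endothelial cells (log2 fold change 1.68 ± 0.23, adjusted p = 1.1e-11). All 3 were above all 7 classes, with Ntn1 next in fibroblasts at 49.2 CPM. Rspo3, an R-spondin that raises Wnt signalling in crypt stem cells, was at 75.2 and 114 CPM in LEC and without a UMI in blood endothelial cells, at least 23.4-fold higher. A UMI of Rspo3 was seen in 32 of 182 LEC. Fibroblasts averaged 25.5 CPM of it, the test over all 7 classes did not call it (adjusted p = 0.16), and it did not pass the filter once the 65 barcodes were left out. Reln, whose level the rule used, was at 814 and 802 CPM in LEC.

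The signals that were lower in LEC are largely known from blood capillaries and arteries. Edn1, the vasoconstrictor endothelin 1, was at 85 and 10.4 CPM in LEC, against 309 and 451 CPM in blood endothelial cells (log2 fold change -2.84 ± 0.32, adjusted p = 1.6e-17), and its 2 LEC values were far apart. Hbegf, an EGF-family ligand, was at 170.0 and 20.7 CPM in LEC, against 590.3 and 652 CPM in blood endothelial cells (log2 fold change -2.64 ± 0.25, adjusted p = 1.4e-23), again with unlike replicates. Kitl, the ligand of Kit, was at 121 and 56.9 CPM in LEC, against 441 and 380.0 CPM in blood endothelial cells (log2 fold change -2.22 ± 0.27, adjusted p = 2.8e-14). Igfbp7 was at 899 and 709 CPM in LEC, against 5004 and 5501 CPM in blood endothelial cells (log2 fold change -2.78 ± 0.17, adjusted p = 1.1e-55), the reverse of Igfbp5. Pdgfb, which recruits pericytes, was at 6.54 and 5.18 CPM in LEC, against 104 and 67.3 CPM in blood endothelial cells (ratio 0.067, 95% counting interval 0.0135 to 0.204, adjusted p = 4.3e-07). Edn1, Hbegf and Kitl were also called lower without the 65 barcodes (adjusted p = 3.1e-15, 2.5e-19 and 7.9e-15). Their log2 fold changes were then -3.90 for Hbegf and -4.29 for Kitl, and that of Igfbp7 was -3.87, while 27 of the 28 Edn1 UMIs of LEC lay in the 65.

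Of 29 tested matrix and anchoring genes 7 were higher in LEC, 8 lower and 14 not called (median log2 fold change 0.55). The metalloproteinase inhibitor Timp3 was at 5707 and 6097 CPM in LEC, against 1607 and 1503 CPM in blood endothelial cells (log2 fold change 1.84 ± 0.16, adjusted p = 1.6e-26), and was above all 7 classes. Timp2 was at 1059 and 1097 CPM in LEC, against 62.1 and 80.7 CPM in blood endothelial cells (log2 fold change 3.86 ± 0.24, adjusted p = 6e-53), with fibroblasts at 847 CPM. Col18a1, the precursor of endostatin, was at 242 and 347 CPM in LEC, against 18.6 and 10.1 CPM in blood endothelial cells (log2 fold change 4.09 ± 0.38, adjusted p = 1.5e-24; 4.83 without collection 1A). Basement membrane collagen ran the other way: Col4a2 was at 163 and 181 CPM in LEC, against 663 and 541 CPM in blood endothelial cells (log2 fold change -1.91 ± 0.24, adjusted p = 1.2e-13), and perlecan, Hspg2, had a log2 fold change of -1.49 ± 0.36 (adjusted p = 0.00027), not called without collection 1A (adjusted p = 0.053) or with at most 5% mitochondrial UMIs (adjusted p = 0.20). Col4a1 had a log2 fold change of -0.70 ± 0.20, a call that was lost without the 65 barcodes (adjusted p = 0.085). Sparcl1, a matricellular protein of blood vessels, was at 304 and 98.3 CPM in LEC, against 1251 and 1197 CPM in blood endothelial cells (log2 fold change -2.64 ± 0.22, adjusted p = 2e-31). Without the 65 barcodes the log2 fold changes were -5.55 for Sparcl1 and -2.20 for Hspg2.

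Of 18 tested genes of lipid uptake and transport, 9 were lower in LEC than in blood endothelial cells, 3 higher and 6 not called (median log2 fold change -0.53), and 7 of the 9 remained without the 65 barcodes. Fabp4, a fatty acid carrier of capillaries, was at 418 and 254 CPM in LEC, against 1727 and 1675 CPM in blood endothelial cells (log2 fold change -2.39 ± 0.21, adjusted p = 3e-28). Cd36, the fatty acid translocase, was at 108 and 36.2 CPM in LEC, against 246 and 212 CPM in blood endothelial cells (log2 fold change -1.64 ± 0.30, adjusted p = 1e-06), and Scarb1, the receptor for high-density lipoprotein, at 55.6 and 25.9 CPM, against 263 and 232 CPM (log2 fold change -2.60 ± 0.34, adjusted p = 1.4e-12). Without the 65 barcodes the log2 fold changes were -3.89 for Fabp4 and -2.88 for Cd36, with 2 Scarb1 UMIs left in LEC, and without collection 1A that of Cd36 was -2.35. Gpihbp1, which holds lipoprotein lipase on capillary endothelium, ran the other way, at 147 and 160.4 CPM in LEC, against 41.4 and 50.4 CPM in blood endothelial cells (log2 fold change 1.67 ± 0.42, adjusted p = 0.0005). Cav1, the coat protein of caveolae, was at 709 and 833 CPM in LEC and 493 and 615 CPM in blood endothelial cells, with no call (adjusted p = 0.12), but it was called higher in LEC without the 65 barcodes (adjusted p = 0.02) and with DESeq2's size factors (adjusted p = 0.048).

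Of 28 tested blood endothelial genes 17 were lower in LEC, 2 higher (Podxl and Gpihbp1) and 9 not called, and all 17 remained without the 65 barcodes. The Podxl call was lost when genes of low counts were kept (adjusted p = 0.24), under DESeq2's Wald test (0.052) and without collection 1B (0.085). Esm1, a proteoglycan of sprouting tips, had no UMI in LEC and 242 and 239 CPM in blood endothelial cells, at least 40.1-fold lower in LEC on the floor of 3 UMIs. Ly6c1 was at 226 and 88 CPM in LEC, against 1423 and 1621 CPM in blood endothelial cells (log2 fold change -3.26 ± 0.23, adjusted p = 4.1e-43). Of the 86 Ly6c1 UMIs in LEC, 82 lay in the 65 barcodes that met another class rule, and without those the log2 fold change was -6.16. In the lymphatic identity list 26 of 27 tested genes were higher, and 11 of the 27 passed the filter through LEC alone, so the count is given as a description. Its members Thy1 (CD90) and Stab1, a scavenger receptor, were above all 7 classes. Thy1 was at 565 and 564 CPM in LEC, against 6.21 and 6.73 CPM in blood endothelial cells, and Stab1 at 314 and 481 CPM in LEC, against 18.6 and 37 CPM in blood endothelial cells (adjusted p for all 7 classes 4.2e-08 and 1.5e-06).

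Genes that tissue dissociation is known to raise took 2.74 and 2.75% of LEC UMIs, against 3.28 and 3.31% in blood endothelial cells. Of the 19, 1 was higher in LEC, 10 lower and 8 not called. The one higher was the heat-shock gene Hspa1b, at 1177 and 1382 CPM in LEC, against 240.3 and 235 CPM in blood endothelial cells (log2 fold change 2.34 ± 0.21, adjusted p = 2e-27). Its close paralog Hspa1a was at 1553 and 1630.3 CPM in LEC and 1553 and 1496 CPM in blood endothelial cells, with no call, and since reads of such copies can be split by the counting, the Hspa1b value is uncertain. Fos and Jun were not called, but Fos was called higher in LEC with at most 5% mitochondrial UMIs (log2 fold change 0.90, adjusted p = 0.00027). Ier2 was lower in LEC (log2 fold change -1.51 ± 0.20, adjusted p = 5.7e-12). Of 4 tested proliferation genes 1 was lower, Pcna, at 222 and 109 CPM in LEC, against 617 and 538 CPM in blood endothelial cells (log2 fold change -1.85 ± 0.24, adjusted p = 8.3e-13), while Mki67 had 16 UMIs in all LEC.

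Variation among the LEC themselves was led by genes whose UMIs lay mostly in 1 barcode. By residual variance over members, the 8 leading genes of 1743 with at least 50 UMIs were Igkc, Igha, Igj, Igkv4-70, Ighv9-3, Selp, Cd74 and H2-Aa. A single barcode held 1446 of the 1517 Igkc UMIs and all those of Igkv4-70 and Ighv9-3. Cd74 and H2-Aa, of antigen presentation, had 142 of 277 and 88 of 131 UMIs in their highest barcode. The higher calls of these last genes in LEC (log2 fold change 0.85 ± 0.18 for Cd74 and 1.54 ± 0.26 for H2-Aa) were lost without the 65 barcodes (adjusted p = 0.24 and 0.10) and without collection 1A (log2 fold changes 0.10 and 0.15), and without collection 2B that of H2-Aa was 2.26. Igkc was called higher in LEC (log2 fold change 0.42 ± 0.16) and turned to -3.62 without them, to -3.40 without collection 1B, to 1.26 without collection 1A and to -3.59 without the 3 barcodes that held B or plasma cell genes. The next gene was Ccl21a, from 0 to 102 UMIs with a median of 15.5 per LEC, which is a spread over the class and not a single barcode. Further down, and chosen after their values were seen, were the NF-kappaB inhibitor gene Nfkbia and the immediate-early gene Fos, whose highest single barcode held 9.51% and 5.42% of their UMIs.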

How the data were processed

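Deposited values are raw UMI counts, 1 table per collection, with genes in rows and barcodes in columns per the file headers. Per the submitters' processing notes STAR 2.6 and mm10 were used. Which program counted the UMIs, with which strand setting, and how barcodes were chosen is not given in the sources used here. Members, classes and gene lists were chosen with earlier results of these data known. A barcode was assigned to another class when at least 2 of 4 class genes had a UMI, no second class did, and it was no LEC. Counts were added up over the cells of each class in each biological replicate. These sums were tested in edgeR 4.0.16 (R 4.3.3) by the two-sided quasi-likelihood F test, after filterByExpr by class and TMM normalisation, with Benjamini-Hochberg adjustment and a threshold of 0.05; DESeq2 1.42.0 was an alternative. All 8 classes and a replicate block entered the fit, because sums of one replicate came from the same suspension, and the genes of the LEC rule, and against blood endothelial cells also their 4 class genes, were left out of the adjustment. Fold changes carry SE. CPM are UMIs per 1000000 UMIs of a sum, with replicate 1 given before replicate 2. Doublets were not removed. On simulated data with 200 genes changed 4-fold, 100% of the raised and 88% of the lowered genes were recovered and 4.08% of calls were false (5683 genes). The simulated spread was a fixed value not estimated from these data, with no replicate effect, and genes of few LEC UMIs were not among those changed. These rates therefore need not hold for the real sums, least of all for genes of few UMIs or led by a single barcode. Against blood endothelial cells 10 genes per direction were named by fold change. They were called genes with at least 30 UMIs in the higher class and a UMI in the lower. The 15 named above all 7 classes were the called genes with the largest smallest fold change, with no such UMI limit. By residual variance 8 were named, called or not, among genes with at least 50 UMIs in LEC. List members were named by role. Symbols are those of the tables. Of 135 named genes looked up in GENCODE M21, 132 matched 1 gene and 70 of these overlapped another gene, whose reads cannot be told apart without the strand setting. Of all barcodes 10 occurred in more than 1 collection. Binomial intervals are exact (Clopper-Pearson; Python 3.11.15).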

Additional observations from a re-analysis of the deposited data

Results flagged for a closer look

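Over 26 measures compared across the 5 collections (the share of LEC, the 4 rule genes and the named genes that were higher in LEC), 1 value stood apart from the rest by Dixon's criterion, and chance sets apart about 1 group in 20. Dtx1 in LEC was at 268, 277, 257, 519 and 318 CPM in collections 1A, 1B, 2A, 2B and 2C, and collection 2B, the highest, was separated from the next by more than the criterion allows. All 5 values were above the 2.07 and 0 CPM of blood endothelial cells.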

How the results depend on the processing

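The 790 higher, 906 lower and 77 above-all-class genes came to 728, 822 and 66 with no replicate block; the block was used because sums of one replicate share a suspension, and deviations of classes from the same replicate correlated by -0.06 to 0.21 over 28 pairs of classes (median 0.09). DESeq2's Wald test gave 595 lower and 31 above-all-class genes, sums per collection 552 lower, and at most 5% mitochondrial UMIs 505 higher and 579 lower. Thinning each cell to 800 UMIs before summing, chosen after seeing the data, gave 309, 352 and 42, on fewer UMIs and 2466 tested genes. Leaving out 1 collection at a time gave 516 to 721 higher, 654 to 807 lower and 56 to 66 above-all-class genes, and a share of LEC of 2.79 to 3.21%. The share was 2.03% with at least 3 of 4 rule genes, 1.95% without barcodes that met another class rule, 3.26% with at least 500 genes, 3.47% with at most 5% mitochondrial UMIs and 2.83% with no mitochondrial limit.

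With a call in either fit, directions turned for 6 of the 131 genes followed, with the cause not tested. With at least 3 of 4 rule genes the log2 fold changes were -0.94 for Cd74, -0.42 for H2-Aa and -3.59 for Igkc. Igkc was also -3.62 without barcodes that met another class rule, -0.14 with at most 5% mitochondrial UMIs, and -3.59 without the 3 barcodes with B or plasma cell genes, the last also chosen after seeing the data. Fos came to 0.90 with at most 5% mitochondrial UMIs. Leaving out 1 collection at a time gave -3.70 to 0.19 for Igha, -4.11 to 0.064 for Igj and -3.40 to 1.26 for Igkc. Across genes and settings 1983 of 2119 values kept their direction and their side of the threshold, 46 more, of 9 genes, changed sign without a call in either fit, 59 lost and 21 gained a call. Without 1 collection, fold changes also moved by over 1.5 times for called genes whose values without a collection are not given above: Lcn2, Sult1a1, Fxyd6, Lbp and Bmx (1A), Pard6g (2A), and genes with few UMIs in one class. The depth, a median of 1724.5 UMIs per cell, limits what a cell without a UMI shows, and 2 replicates limit the precision.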

Other observations

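Further genes that were above all 7 classes in LEC, chosen for description after their values were seen, include transport, guidance, signalling and matrix genes. The water channel gene Aqp1 was at 562 and 579.7 CPM in LEC, against 66.3 and 77.3 CPM in blood endothelial cells, and pericytes, the highest class outside the endothelium, averaged 15.1 CPM (adjusted p for all 7 classes 7.8e-10, edgeR). Sema6a, a membrane-bound semaphorin, was at 415 and 357 CPM in LEC, against 74.6 and 53.8 CPM in blood endothelial cells (adjusted p for all 7 classes 1.5e-06). The tyrosine kinase gene Bmx was at 101 and 181 CPM in LEC, against 14.5 and 6.73 CPM in blood endothelial cells (adjusted p for all 7 classes 0.034). Ptpn14, a phosphatase that binds Yap and, in human families, is linked to lymphatic oedema, was at 222 and 191 CPM in LEC, against 39.4 and 33.6 CPM in blood endothelial cells (adjusted p for all 7 classes 0.0059). Prelp, a matrix leucine-rich repeat proteoglycan, was at 477 and 621 CPM in LEC, against 10.4 and 10.1 CPM in blood endothelial cells (adjusted p for all 7 classes 1.5e-09). Sema6a, Bmx and Ptpn14 passed the filter on low counts through LEC alone. In each case both LEC values were above both blood endothelial values.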
